A study of Bos grunniens with 12 samples.

Results

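The ZNF genes of the yak testis were taken as the rows of the deposited gene table whose symbol starts with ZNF and a digit and whose mean FPKM over the 6 input libraries was at least 1. FPKM gives the fragments of a gene relative to its transcript length and to the mapped fragments of the library. Of 20953 genes in the table, 429 carried such a symbol and 237 reached this level. The genes were chosen by their own measured levels in these libraries, so the level itself is described here and not tested. Just inside the limit lay ZNF202 at 1.003 and ZNF471 at 1.025 FPKM, and just outside it ZNF180 (ENSBGRG00000025290) at 0.9915 and ZNF260 at 0.9859. Of the 192 ZNF rows below the limit, 57 were at 0 in every library. The 237 genes carried 177 symbols, since 35 symbols stood on more than 1 gene identifier and held 95 of the genes.

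Zinc finger proteins of this family bind DNA through repeated C2H2 fingers, in which 2 cysteines and 2 histidines hold a zinc ion. Many also carry a KRAB domain, which recruits the corepressor TRIM28 and through it histone methyltransferases that silence transposable elements. The genes lie in clusters made by gene duplication, and the whole array of fingers is often encoded in 1 long last exon. N6-methyladenosine (m6A) is a methyl mark inside mRNA, known to be dense in long internal exons and around stop codons. Some family members do other work, such as sensing collided ribosomes or organising chromatin in meiosis.

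The study asked how m6A and gene expression of the testis differ before and after sexual maturity. Testes of 3 yaks (Bos grunniens) of 1.5 years, titled 18M, and of 3 yaks of 5 years, titled 5Y, each gave an IP library, enriched with an antibody against m6A, and an input library, so that 12 libraries were made. No treatment or genotype was named. By the record, the testes of the younger animals were obtained by castration and those of the older ones after slaughter, where the study's methods name euthanasia, so age and the way of collection cannot be told apart.

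The titles were taken as the groups throughout. In the record, a separate field for the stage contradicts the title of each sample, and with that field in place of the titles each direction below would be reversed. Genes that mark elongating spermatids were high in the libraries titled 18M, which goes against a testis before maturity. Of 10 such markers 4 were in the table (TNP1, HMGB4, GAPDHS and ODF1), none at 0, and their summed FPKM was 1154 to 1195 in the 18M libraries and 262.5, 848.7 and 731.4 in libraries 5Y_1, 5Y_2 and 5Y_3. Of 8 Sertoli cell markers 6 were found, summing to 73.7 to 86.6 in the 18M libraries and to 256.6, 107.7 and 135.1 in the 5Y libraries. Of 8 markers of peritubular and stromal cells 7 were found, summing to 24.2 to 27.3 in the 18M and 58.8, 35.3 and 47.4 in the 5Y libraries. The 8 spermatocyte markers summed to 93.0 to 97.6 in the 18M and 78.2, 96.7 and 90.8 in the 5Y libraries. The 5Y libraries therefore differed from each other, with 5Y_1 farthest from the 18M libraries and 5Y_2 nearest. In bulk tissue, fewer cells of a type and less RNA per cell cannot be told apart, and the part of these markers in the differences of ZNF genes was not tested.

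By level, the ZNF genes were a small and mostly low expressed part of the testis transcriptome. They held 0.888% to 0.953% of the summed FPKM of an 18M library and 0.935% to 0.979% of a 5Y library. Their median level was 3.16 FPKM, against 5.24 FPKM over the 10928 genes with a mean of at least 1 FPKM. Of the 237 genes, 167 had a mean under 5 FPKM and 25 had at least 10. None was at 0 in any library. In both groups 214 had a mean of at least 1, while 19 reached it only in the 5Y group and 4 only in the 18M group.

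ZNF18 (ENSBGRG00000018061) had the highest level, with 92.3, 101 and 93.3 FPKM in the 18M libraries and 55.0, 86.8 and 79.3 FPKM in the 5Y libraries. The groups did not overlap, although 5Y_2 lay close to the 18M libraries. ZNF706 (ENSBGRG00000009675), a short protein with a single zinc finger, followed with 44.5, 77.0 and 42.4 FPKM against 17.9, 41.9 and 35.0 FPKM. Here the highest 5Y library came within 1 FPKM of the lowest 18M library. ZNF574, ZNF646, ZNF614 (ENSBGRG00000017737) and ZNF428 had means of 42.5, 38.5, 27.1 and 23.3 FPKM in the 18M group and 37.0, 28.4, 22.9 and 17.1 FPKM in the 5Y group. ZNF280C, ZNF318, ZNF184 (ENSBGRG00000018216) and ZNF541 completed the 10 highest, with means of 18.7, 18.4, 18.2 and 17.0 FPKM over the 6 libraries. Over the 6 libraries each of the 10 overlapped with the next in this order, so that ZNF574 ranged from 28.7 to 43.6 FPKM and ZNF646 from 18.8 to 41.2 FPKM. Of these 10 genes, 9 had a lower mean in the 5Y group, and ZNF280C, at 16.8 ± 0.881 against 20.5 ± 4.87 FPKM (SD, n = 3 each), had a higher one. Only ZNF428 and ZNF541 among the 10 had an unadjusted p under 0.05.

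The input libraries were compared with limma on log2(FPKM + 0.1), a scale that understates the change of low genes, and every log2 fold change is the 5Y minus the 18M group, given with its standard error (SE). No ZNF gene of the 237 passed an adjusted p of 0.05, where 0.0322% of all genes tested did (4 genes). The smallest adjusted p of limma among the ZNF genes was 0.154. The differences named from here on are therefore below that threshold, and a gene is called higher or lower only at an unadjusted p under 0.05 in this fit. Libraries were simulated with noise that was independent between genes and of equal spread in both groups. There, a log2 difference of 1 was found in 19.5% of altered genes at the adjusted threshold. At an unadjusted p under 0.05 it was found in 85.5%. The measured 5Y libraries correlated with each other at 0.87 to 0.94, and the 18M libraries at 0.95 to 0.96 (Pearson, all genes tested). The simulated shares may therefore not hold for the measured libraries. With 3 libraries against 3, an exact permutation test of 1 gene cannot go below 0.1.

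At an unadjusted p under 0.05, 31 ZNF genes were higher in the 5Y group, or 13.1%, where 14.2% of all genes tested were. A further 12 were lower, or 5.06%, where 10.9% of all genes tested were. Both directions together made 43 genes, or 18.1%, against a background of 25.1%. The share higher was near the background, and the share lower was below it. Of the 31 higher genes, 7 had an 18M mean under 1 FPKM, so that only their 5Y libraries brought them over the limit of 1 FPKM, and they had to differ. Among the 214 ZNF genes with a mean of at least 1 FPKM in each group, 24 were higher (11.2%, background 13.1% of genes with that level) and 12 lower (5.61%, background 11.3%), a comparison chosen after seeing the data. The libraries of the groups did not overlap for 57 ZNF genes on the higher side (24.1%, background 19.8%) and for 22 on the lower side (9.28%, background 13.9%), which in both directions together is 33.3% against a background of 33.7%. The median log2 fold change of the ZNF genes was 0.14, with quartiles of -0.15 and 0.34, and that of all genes tested was 0.04, with quartiles of -0.31 and 0.37. A log2 fold change above 0 was seen in 62.4% of ZNF genes and in 53.5% of all genes tested. The ZNF genes behind these values include 19 that reached 1 FPKM only in the 5Y group and 4 only in the 18M group. For such genes the direction of the difference in mean was built into their choice. The no-overlap counts, the median and the share above 0 were not recomputed without these genes. The background of all genes tested was held to a lower limit of mean level. The split of 31 higher and 12 lower moved with the scaling of the libraries. It was 50 and 10 (21.1% and 4.22%) when each was scaled to the same sum, where 19.5% and 8.46% of all genes were higher and lower. It was 25 and 19 (10.55% and 8.02%) when scaled by the median ratio, where 11.8% and 13.5% of all genes were. The first of these scalings moved the median of all genes to 0.17. The ZNF median lay 0.10 above that of all genes in the deposited values and under both scalings, and 0.05 above it after quantile normalization.

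Removal of 1 library changed the calls. Without 5Y_2, the library nearest to the 18M group, 24 of the 237 ZNF genes passed an adjusted p of 0.05 in limma, 16 higher and 8 lower. Of the 12437 genes tested, 2403 passed, which is a larger share. Among the 12 genes lower at an unadjusted p, 5Y_2 was the 5Y library nearest to the 18M mean in 10 and 5Y_1 the farthest in 10. Among the 31 higher genes, 5Y_2 was the nearest in 25 and 5Y_1 the farthest in 25. The same order of 5Y libraries was seen in the summed marker levels of spermatids and Sertoli cells. Over the ZNF genes, 5Y_2 correlated with the 18M libraries at 0.946 to 0.955 and 5Y_1 at 0.794 to 0.813 (Pearson, across 237 genes that share a library and are not replicates).

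The log2 fold changes differed between levels, and their size at high levels moved with the scaling. Of 25 ZNF genes with a mean of at least 10 FPKM, 17 (68.0%) had a log2 fold change below 0, and the median was -0.34. Of the 25, 4 were lower and 2 higher at an unadjusted p under 0.05. Among 74 ZNF genes between 1 and 2 FPKM only 23 (31.1%) had a value below 0, with a median of 0.27. Among 93 between 2 and 5 FPKM 28 (30.1%) had one, with a median of 0.18. The 45 between 5 and 10 FPKM lay between these, with 21 below 0 (46.7%) and a median of 0.03. Of the 45, 7 were higher and 6 lower at an unadjusted p under 0.05. After quantile normalization the median from 10 FPKM on was -0.11, with 14 of 25 below 0. Under median ratio scaling it was -0.38 with 20 below 0, and with each library scaled to the same sum -0.21 with 15 below 0. Quantile normalization also moved ZNF18 from -0.40 to -0.11 and ZNF574 from -0.22 to 0.01. Other genes showed the same order, with 65.0% of 3178 below 0 at 10 FPKM or more and 36.8% of 1900 between 1 and 2 FPKM. After quantile normalization these shares were 51.5% and 46.2%. No ZNF gene between 2 and 5 FPKM was lower at an unadjusted p under 0.05, while 12 were higher. Among other genes of that level 285 of 3223 were lower at the same threshold and 567 were higher.

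**Figure D1:**
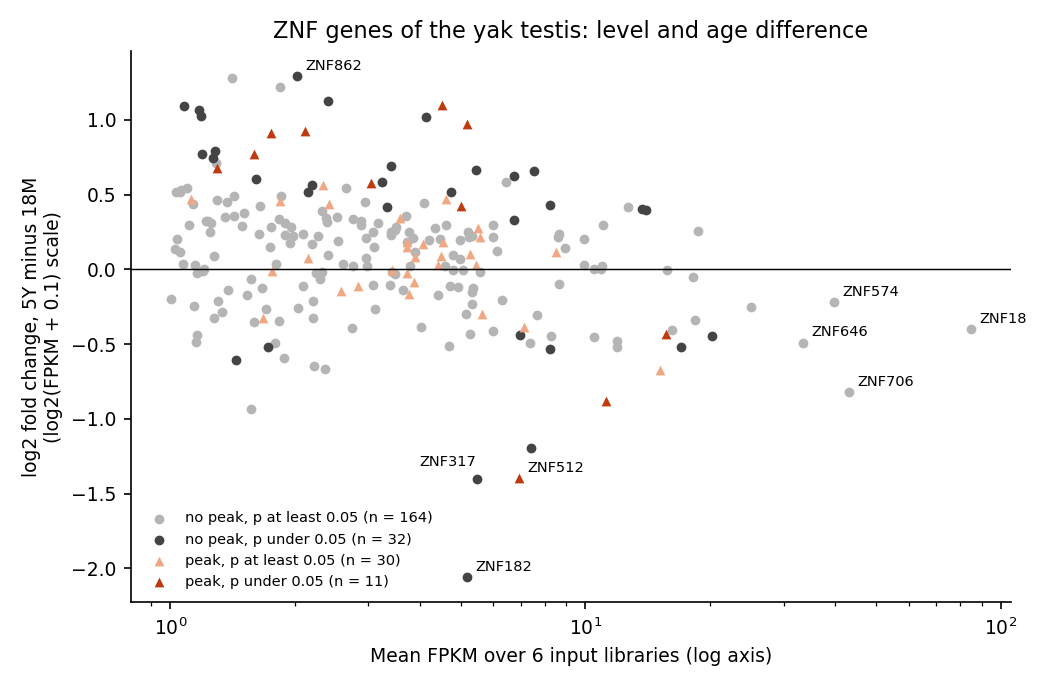
Mean FPKM over the 6 input libraries (horizontal, log axis) against the log2 fold change of 5Y minus 18M on the log2(FPKM + 0.1) scale (vertical) for the 237 ZNF genes, with triangles for the 41 that carry a differential m6A peak and dark symbols for an unadjusted p under 0.05. Of the 25 genes at 10 FPKM or more 17 lie below 0, and of the 93 between 2 and 5 FPKM 28 do.

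Among ZNF genes at an unadjusted p under 0.05 whose groups did not overlap, the largest negative difference was that of ZNF182 (ENSBGRG00000016915). Its level was 7.22, 7.21 and 8.97 FPKM in the 18M libraries and 0.724, 5.78 and 1.28 FPKM in the 5Y libraries. Library 5Y_2 lay far above the other two 5Y libraries. The log2 fold change was -2.06 (SE 0.65, adjusted p = 0.154, limma), and it was -2.88 without 5Y_2. ZNF317 (ENSBGRG00000004802) had 9.34, 7.88 and 6.55 FPKM against 1.83, 4.02 and 3.31 FPKM, a log2 fold change of -1.40 (SE 0.30, adjusted p = 0.154, limma). All 3 of its 5Y libraries were below every 18M library by more than 2 FPKM. ZNF512 (ENSBGRG00000008078), which also carried differential m6A peaks, had 9.43, 8.79 and 10.97 FPKM against 2.22, 7.26 and 2.92 FPKM. Its log2 fold change of -1.40 (SE 0.40, adjusted p = 0.154, limma) again had 5Y_2 nearest to the 18M libraries. ZNF385D (ENSBGRG00000009302), named for a protein with fingers of the RNA-binding type, had 10.1, 10.7 and 9.76 FPKM against 4.38, 6.23 and 3.09 FPKM, a log2 fold change of -1.19 (SE 0.25, adjusted p = 0.154, limma).

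The other genes of the 10 with the largest negative differences under this limit had log2 fold changes between -0.61 and -0.44. They were ZNF773 (ENSBGRG00000015478), ZNF526 (ENSBGRG00000017155), ZNF624 (ENSBGRG00000014506), ZNF541, ZNF428 and ZNF23 (ENSBGRG00000018945). Differences outside this limit could be larger, as for ZNF783 at -0.88 and ZNF706 at -0.82. ZNF526 was at 9.67 ± 0.712 FPKM in the 18M and 6.73 ± 1.33 FPKM in the 5Y group (SD, n = 3 each), and ZNF23 at 7.996 ± 0.262 and 5.88 ± 0.669 FPKM.

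On the higher side under the same limit, ZNF862 (ENSBGRG00000017911) had the largest difference, with 1.39, 1.75 and 0.424 FPKM in the 18M libraries and 4.33, 2.24 and 1.96 FPKM in the 5Y libraries. Its log2 fold change was 1.29 with a standard error of 0.52 (adjusted p = 0.184, limma). Its 18M libraries were themselves spread, with 18M_3 far below the other two. ZNF362 had 1.78, 1.28 and 1.32 FPKM against 4.17, 2.78 and 3.04 FPKM, a log2 fold change of 1.13 (SE 0.22, adjusted p = 0.154, limma), which had the smallest unadjusted p of the ZNF genes. ZNF395, a gene described as responsive to hypoxia, had 2.76, 2.75 and 2.81 FPKM against 8.24, 4.30 and 6.27 FPKM. Its 18M libraries were nearly equal, its 5Y libraries were spread, and its log2 fold change was 1.10 (SE 0.24, adjusted p = 0.154, limma). ZNF784 (ENSBGRG00000022500), ZNF319 and ZNF333 followed with log2 fold changes of 1.09, 1.07 and 1.02, from 18M means of 0.633 ± 0.113, 0.742 ± 0.302 and 0.740 ± 0.117 FPKM (SD, n = 3). ZNF385D (ENSBGRG00000009437), ZNF423, ZNF618 and ZNF582 (ENSBGRG00000022122) completed the 10 largest with log2 fold changes of 1.02, 0.92, 0.91 and 0.79. ZNF784, ZNF319, ZNF333 and ZNF582 had 18M means under 1 FPKM and met the limit of 1 FPKM only through the 5Y group, so a difference of this sign was built into their choice. Of the 10 largest, all but ZNF362, ZNF395 and ZNF385D had a mean under 3 FPKM in both groups.

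**Figure D2:**
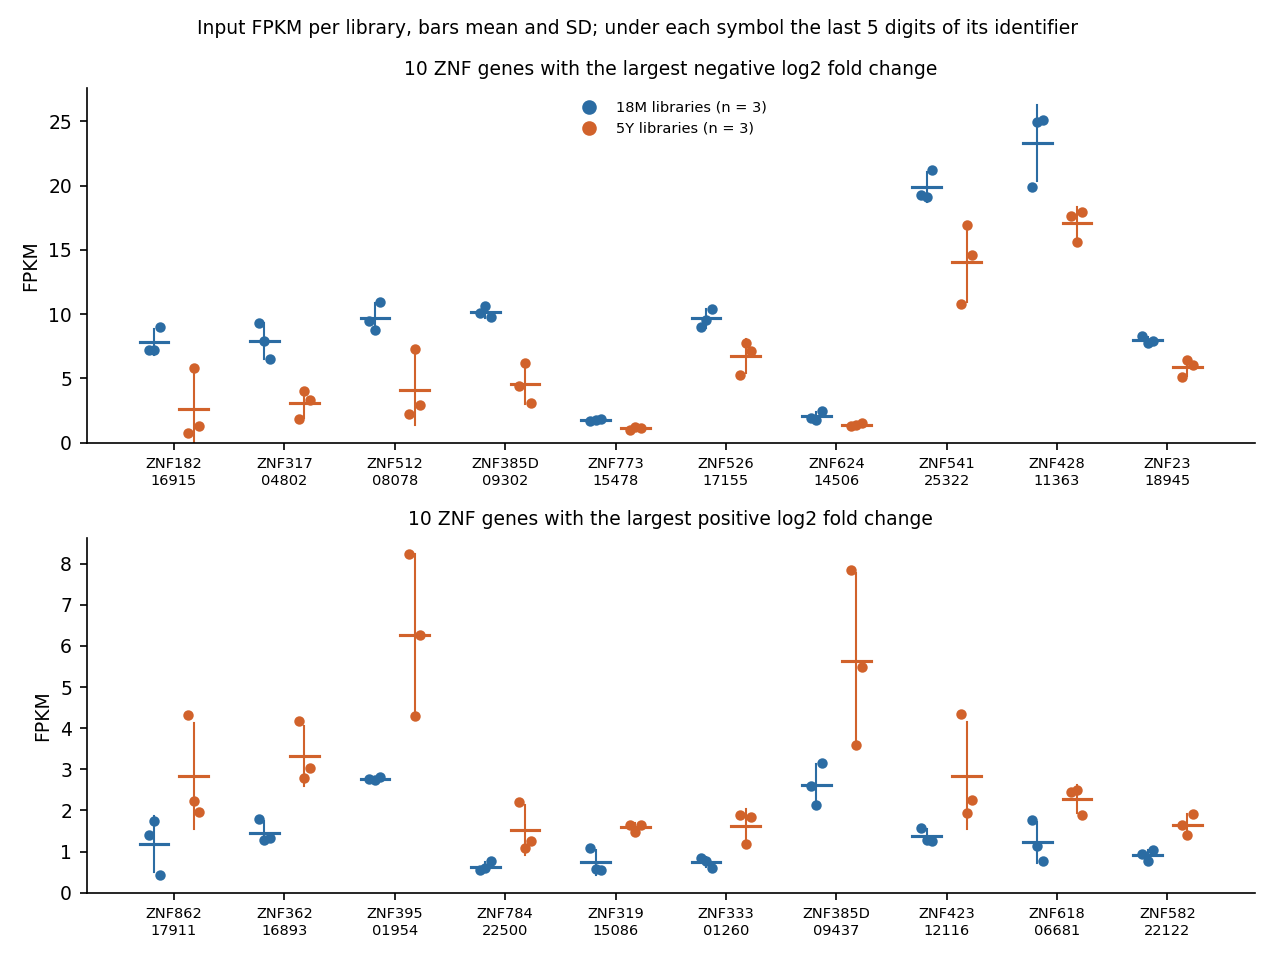
FPKM of single input libraries (points) with the group mean and SD (bars, n = 3 per group) for the 10 ZNF genes with the largest negative (top) and positive (bottom) log2 fold changes among those at an unadjusted p under 0.05 with no overlap of libraries. ZNF182 runs from 7.21 to 8.97 FPKM in the 18M libraries and from 0.724 to 5.78 FPKM in the 5Y libraries, and ZNF395 from 2.75 to 2.81 against 4.30 to 8.24 FPKM.

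Genes of several known roles were read from lists, whose counts stand beside 14.2% of all genes tested that were higher and 10.9% that were lower at an unadjusted p under 0.05. Of the germ cell list, ZNF541, a partner of histone deacetylases in meiosis, was at 19.9 ± 1.19 FPKM in the 18M and 14.1 ± 3.10 FPKM in the 5Y group (SD, n = 3 each). Its log2 fold change was -0.52 (adjusted p = 0.171, limma), and its libraries did not overlap. ZNF628, a regulator of genes expressed after meiosis, was at 18.3 ± 3.50 and 11.9 ± 3.98 FPKM, with a log2 fold change of -0.67 (adjusted p = 0.202, limma). ZNF318, also called testicular zinc finger protein, had a log2 fold change of -0.34 (adjusted p = 0.315, limma). The 2 identifiers under ZNF165, a testis antigen gene, had values of -0.14 and 0.33. The list's median was -0.34 over 5 genes, of which 1 was lower and 0 were higher at an unadjusted p under 0.05. ZNF474, the remaining gene of the list, was not among the ZNF genes of this level.

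Of 10 symbols of the RNA and ribosome list, all but ZNF385A and ZNF106 were among the ZNF genes of this level, and of the 8 genes 2 were higher and 0 lower, beside backgrounds of 14.2% and 10.9%. ZNF638, which takes part in splicing and in the silencing of unintegrated retroviral DNA, had 11.86, 11.95 and 11.41 FPKM in the 18M and 18.4, 14.0 and 14.6 FPKM in the 5Y libraries. ZNF207, a kinetochore protein also known as BuGZ, had 12.1, 12.9 and 11.2 FPKM against 16.5, 14.9 and 16.4 FPKM. Both had a log2 fold change of 0.40, with adjusted p = 0.175 for ZNF638 and adjusted p = 0.161 for ZNF207 in limma, and neither gene's libraries overlapped. ZNF598, the ubiquitin ligase that marks collided ribosomes, was at 14.0 ± 2.47 and 9.85 ± 2.60 FPKM (SD, n = 3 each), with a log2 fold change of -0.52 (adjusted p = 0.206, limma). ZNF622, a ribosome assembly factor, was at 10.5 FPKM in both groups, with a log2 fold change of 0.00 and a standard error of 0.14.

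Of 16 genes of the chromatin list, which lacked ZNF644 and ZNF280D, 3 were higher (background 14.2%) and 0 lower (background 10.9%), and the median log2 fold change was 0.20. The 3 were ZNF532, ZNF518A and ZNF518B. ZNF518A and ZNF518B, related proteins linked to H3K9 and H3K27 methyltransferases, had log2 fold changes of 0.66 (adjusted p = 0.182, limma) and 0.43 (adjusted p = 0.179, limma). ZNF518A had 6.35, 5.50 and 5.20 FPKM in the 18M libraries and 13.2, 6.55 and 8.39 FPKM in the 5Y libraries, so that 5Y_2 lay just above the highest 18M library. ZNF532, part of the ZNF687, ZNF592 and ZNF532 complex, had a log2 fold change of 0.58 (adjusted p = 0.167, limma), and its partner ZNF687 had 0.20 (adjusted p = 0.411, limma). ZNF592 (ENSBGRG00000011208) had -0.16. Of 11 genes of the activator list, which lacked ZNF219, only ZNF148, which binds GC-rich promoters, passed the unadjusted threshold: it had 5.21, 5.34 and 5.17 FPKM in the 18M and 9.63, 6.88 and 8.05 FPKM in the 5Y libraries (log2 fold change 0.62, adjusted p = 0.154, limma). ZNF143, the activator found at promoters and loop anchors, had log2 fold changes of 0.34 and 0.04 for its 2 identifiers. ZNF76, its paralog, had -0.10. Of 9 genes of the development list, ZNF521, ZNF503, ZNF536 and ZNF469 were not among the ZNF genes of this level, and of the other 5 ZNF423, ZNF703 and ZNF395 were higher (background 14.2%). ZNF423, a transcription factor of mesenchymal and fat cell precursors, had 1.57, 1.29 and 1.25 FPKM in the 18M and 4.34, 1.95 and 2.25 FPKM in the 5Y libraries. ZNF703 had a log2 fold change of 0.51 (adjusted p = 0.169, limma) and no overlap of libraries. The stromal marker sums given above were also higher in all 5Y libraries, highest in 5Y_1, and their part in the ZNF423 difference was not tested.

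Of 37 genes of the KRAB repression pathway, 32 were found, and 3 were higher and 3 lower at an unadjusted p under 0.05, where 14.2% and 10.9% of all genes tested were. TRIM28, the corepressor that KRAB domains bind, had 200.3, 207 and 203 FPKM in the 18M and 110.4, 180.5 and 149.0 FPKM in the 5Y libraries, with a log2 fold change of -0.50 (adjusted p = 0.204, limma). Each library held more TRIM28 than any ZNF gene by FPKM, and the groups did not overlap. SETDB1, the H3K9 methyltransferase that TRIM28 recruits, was at 22.3 ± 1.17 and 18.5 ± 4.58 FPKM (SD, n = 3 each). TRIM66, a testis relative of TRIM28, and MBD3 of the NuRD complex were among the lower genes, with log2 fold changes of -1.09 and -0.50. The NuRD subunits RBBP7 and CHD3 and the methyltransferase EHMT1 were higher, with 0.71, 0.41 and 0.48. The median over the list was 0.02.

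Identifiers that share a symbol did not always differ in the same direction. A shared symbol here means that the annotation gave several gene identifiers the same ZNF symbol. Whether these are separate genes or parts of the same gene was not checked. Of 35 symbols on 2 or more ZNF genes, 21 held log2 fold changes of both signs, 10 held values more than 1 apart, and 4 (ZNF385D, ZNF317, ZNF512 and ZNF773) held an identifier higher and another lower at an unadjusted p under 0.05. Some of the 21 rest on values near 0, as for ZNF444 from -0.03 to 0.25 and ZNF24 from -0.08 to 0.30. Of all 237 ZNF genes 62.4% were above 0, and how often genes of different symbols differ in sign was not computed. The counts therefore do not show a trait of shared symbols. For ZNF385D, the identifier ENSBGRG00000009302 was lower in the 5Y group as given above, while ENSBGRG00000009437 had 2.60, 2.14 and 3.15 FPKM in the 18M and 7.84, 3.58 and 5.49 FPKM in the 5Y libraries. Identifier ENSBGRG00000009503 was at 9.15 ± 0.682 and 10.7 ± 2.03 FPKM (SD, n = 3 each). For ZNF317, ENSBGRG00000004329 had 1.67, 1.80 and 1.75 FPKM against 2.90, 2.22 and 2.81 FPKM, a log2 fold change of 0.57 (adjusted p = 0.154, limma) beside the -1.40 of ENSBGRG00000004802. For ZNF512, ENSBGRG00000007504 had 5.71, 5.65 and 6.47 FPKM against 7.46, 7.79 and 7.24 FPKM, a log2 fold change of 0.33 (adjusted p = 0.188, limma). In this identifier the 5Y libraries were close to each other, whereas in ENSBGRG00000008078 they spread from 2.22 to 7.26 FPKM.

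The other identifiers under ZNF182 had log2 fold changes of 0.28 and 0.29, so that the values under this symbol spanned 2.36. ZNF773 stood on 12 identifiers, the most of any symbol, with mean levels from 1.44 to 8.92 FPKM and log2 fold changes from -0.61 to 0.42. ZNF12 had -0.67, 0.68 and 0.77 on 3 identifiers. Those at 0.68 and 0.77 had 18M means of 0.967 and 0.851 FPKM. They met the limit of 1 FPKM only through the 5Y group, so a difference of this sign was built into their choice. The same held for other identifiers in the counts above, such as ENSBGRG00000017067 under ZNF182, ENSBGRG00000024149 under ZNF205, ENSBGRG00000013301 under ZNF470 and ENSBGRG00000022122 under ZNF582. Since the authors kept uniquely mapped reads, reads shared by near-identical copies were not counted, and how this shifted the level of each copy was not tested.

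**Figure D3:**
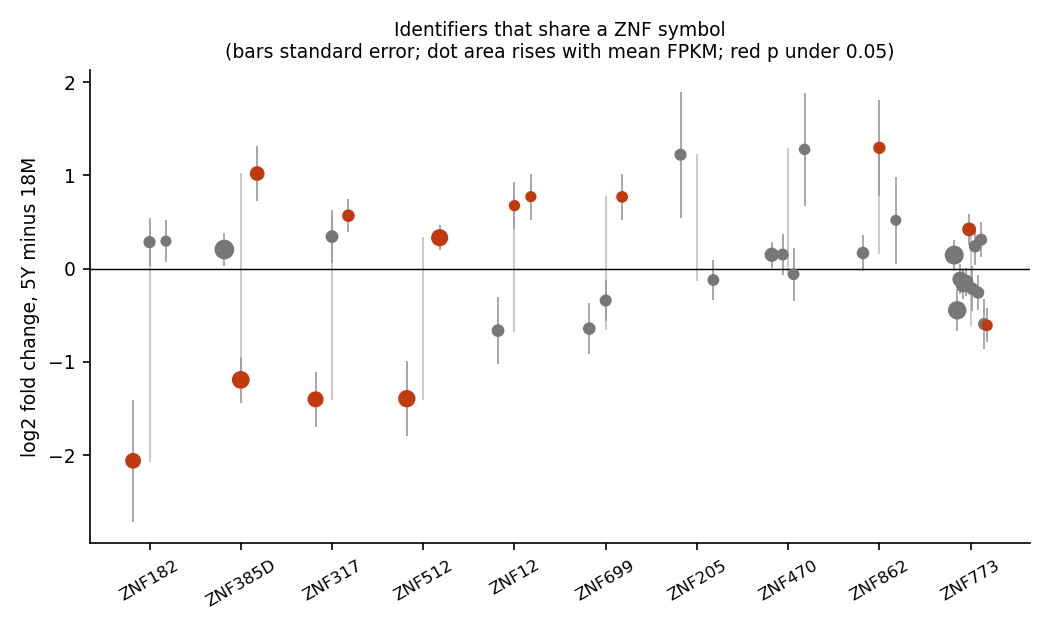
Log2 fold change of 5Y minus 18M (vertical) for each identifier under the 10 ZNF symbols whose identifiers differ by more than 1 on the log2 scale, with bars for the standard error, dot area rising with the mean FPKM and red for an unadjusted p under 0.05. ZNF385D holds identifiers at -1.19, 0.20 and 1.02, and ZNF182 holds -2.06, 0.28 and 0.29.

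Differential m6A peaks between the ages lay on 41 of the 237 ZNF genes, or 17.3%. The background was 10.1% of the 10928 genes with a mean of at least 1 FPKM, and 9.29% of all genes tested. The peaks had passed the thresholds of the authors, and the table gives neither a direction nor a value per animal, so no test between animals could be made. The excess over other genes was not the same at each level. Between 1 and 2 FPKM, 9.46% of ZNF genes and 9.58% of other genes had a peak, between 2 and 5 FPKM 22.6% and 15.1%, between 5 and 10 FPKM 22.2% and 11.9%, and from 10 FPKM on 3 of 25 ZNF genes and 3.65% of the others. Related families had similar or higher shares at a mean of at least 1 FPKM, with 8 of 32 ZBTB genes, 6 of 21 ZSCAN and ZKSCAN genes (28.6%) and 2 of 11 ZFP genes (18.2%). A peak was carried by 33 of 142 ZNF genes that alone held their symbol (23.2%) and by 8 of 95 that shared it (8.42%). The genes with a shared symbol also had a lower median level, 2.36 against 3.53 FPKM.

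**Figure D4:**
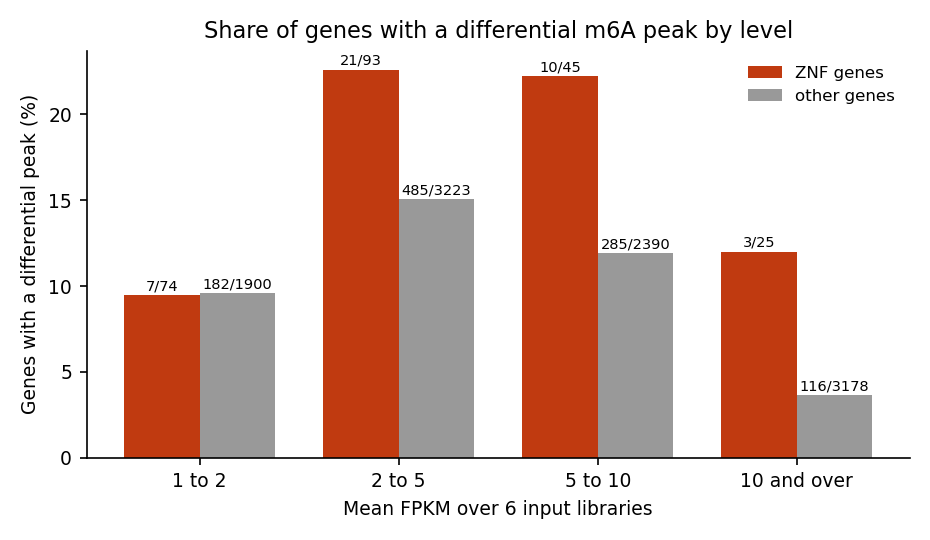
Share of genes with a differential m6A peak (vertical, percent) by mean FPKM over the input libraries (horizontal) for ZNF genes and other genes, with the numbers of genes over each bar. The shares are 9.46% and 9.58% between 1 and 2 FPKM and 22.6% and 15.1% between 2 and 5 FPKM.

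The 41 genes carried 52 peaks: 33 genes had 1 peak, 5 had 2 and 3 had 3. ZNF618, ZNF470 (ENSBGRG00000013929) and ZNF292 had 3 each. ZNF699 (ENSBGRG00000001454), ZNF512 (ENSBGRG00000008078), ZNF518B, ZNF532 and ZNF516 had 2 each. Peak widths, measured on the genome with introns included, ran from 148 to 39546 bp with a median of 299 bp, against a median of 399 bp for the peaks of other genes.

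The position of the peaks differed from that of other genes. An annotated exon that was the last or the only exon of its transcript held 30 of the 52 ZNF peaks (57.7%) and 234 of 1386 other peaks (16.9%). Peaks annotated to a 3′UTR were counted apart from both numbers, also where that UTR lies in the last exon. The 30 include the peaks given to ZNF696 and ZNF783, which lay outside the span of those genes. Inner exons held 12 ZNF peaks (23.1%) and 48.0% of the others. The 3′UTR held 5 ZNF peaks (9.62%) and 18.2% of the others, the first of several exons 4 (7.69%) and 10.5%, and the 5′UTR 1 (1.92%) and 6.42%. Peaks wider than 1000 bp, which span introns or long exons, made up 7 of the ZNF peaks (13.5%) and 31.7% of the others. These are shares of peaks and not of animals, and several peaks of 1 gene share its transcript.

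**Figure D5:**
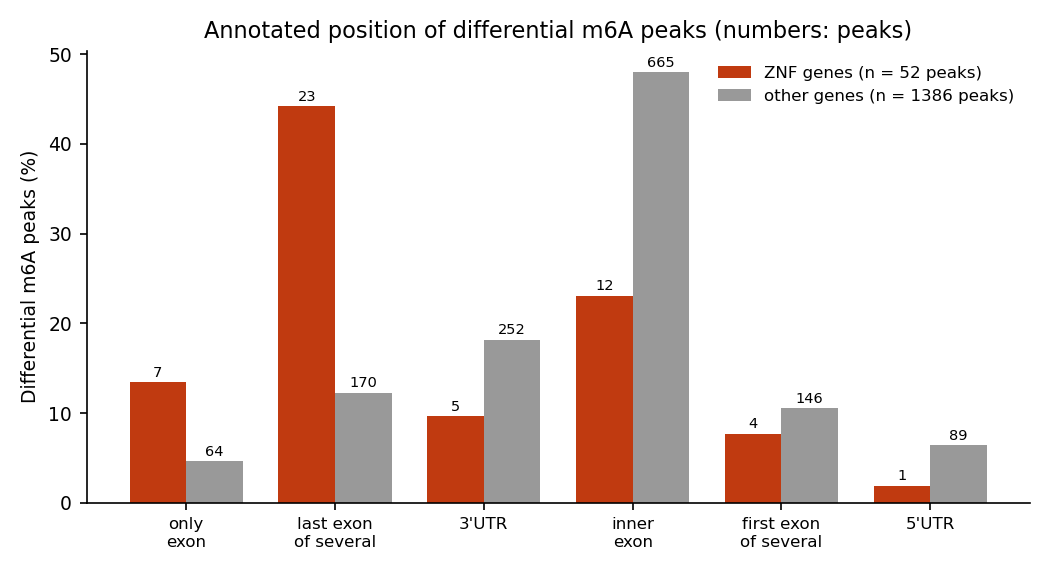
Share of differential m6A peaks (vertical, percent) in each annotated position (horizontal) for 52 peaks of ZNF genes and 1386 peaks of other genes, with the number of peaks over each bar. Last exons of several hold 23 ZNF peaks (44.2%) and 12.3% of the others, and inner exons 23.1% and 48.0%.

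Examples show the last exon peaks on the LU_Bosgru_v3.0 assembly. ZNF292, a large protein with dispersed fingers, is on the plus strand of chromosome 10 from 26488105 to 26589198, and its peaks at 26584720 to 26584870, 26585318 to 26585616 and 26587506 to 26587805 were all annotated to exon 8 of 8. The level of ZNF292 was 5.10, 5.04 and 5.28 FPKM in the 18M and 6.18, 6.09 and 5.66 FPKM in the 5Y libraries, with no overlap and a log2 fold change of 0.21 (adjusted p = 0.318, limma). ZNF470 is on the minus strand of chromosome 20 from 53643227 to 53656129, and its 3 peaks were annotated to exon 7 of 7. Its input level was 3.52 ± 0.177 and 3.91 ± 0.189 FPKM (SD, n = 3 each). ZNF618, on the plus strand of chromosome 7 from 41419585 to 41643592, had peaks in exon 14 of 14 at 41641151 to 41641848 and 41642297 to 41642546 and another in the 3′UTR at 41642795 to 41643044. The level of ZNF618 was 1.76, 1.14 and 0.763 FPKM in the 18M libraries and 2.45, 2.51 and 1.89 FPKM in the 5Y libraries, a log2 fold change of 0.91 (adjusted p = 0.161, limma).

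Genes in this last exon group with a single peak included ZNF24 (ENSBGRG00000019835, exon 3 of 3), ZNF711 (exon 10 of 10, on the X chromosome), ZNF484, ZNF572, ZNF583, ZNF582 (ENSBGRG00000022094), ZNF667, ZNF34, ZNF213, ZNF655, ZNF691, ZNF451 and ZNF12 (ENSBGRG00000016763). The peaks of ZNF146, ZNF329, ZNF699 and ZNF512 were annotated to the only exon of a transcript. The gene of ZNF512 spans 17685 bp, so for its peaks this position is less certain. ZNF146, whose protein consists of little else than fingers, had its peak at 69603402 to 69603694 of chromosome 20 in a gene of 876 bp on the minus strand. The 2 peaks of ZNF512 lay at 96585492 to 96585741 and 96588889 to 96589038 of chromosome 9, inside the gene span of 96578398 to 96596082.

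Peaks in the 3′UTR were those of ZNF395, ZNF410, ZNF462, ZNF592 (ENSBGRG00000011208) and that of ZNF618 given above. That of ZNF395 was at 112889606 to 112889804 on the minus strand of chromosome 7. Inner exons held the peaks of ZNF423, ZNF532, ZNF133, ZNF579, ZNF596, ZNF608, ZNF74, ZNF821 and ZNF829, 1 of the peaks of ZNF516 and 1 of those of ZNF518B. The peak of ZNF423 lay in exon 4 of 8, at 30344567 to 30344865 on the plus strand of chromosome 20. First exons held those of ZNF628, ZNF32, ZNF624 (ENSBGRG00000014605) and the other of ZNF516, and the 5′UTR that of ZNF576. The peaks given to ZNF696 and ZNF783 lay outside the span of those genes, so their assignment is uncertain.

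Chromosome 20 carried 12 of the 41 ZNF genes with a peak (29.3%), where it carried 70 of all 1207 genes with a peak (5.80%). Chromosome 7 followed with 4. On chromosome 20, ZNF667, ZNF583, ZNF582 and ZNF470 lay between 53223419 and 53656129. The gene table holds no positions, so the share of all ZNF genes on chromosome 20 was not computed. In the order of genes in RefSeq (Bosgru_T2T1.0, used for neighbours only), 163 of the 177 symbols were found and 131 ZNF genes could be placed. A peak was carried by 10 of the 41 next to another ZNF gene (24.4%) and by 22 of the 90 others (24.4%). At an unadjusted p under 0.05, 1 of the 41 was higher and 2 lower, and of the 90 others 18 were higher and 2 lower. Of all genes tested, 14.2% were higher and 10.9% lower. The 131 genes each held their symbol alone, and the 41 had a lower median level than the 90, 2.97 against 3.95 FPKM. The difference between these sets was not tested.

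Of the 41 ZNF genes with a peak, 11 (26.8%) differed in level at an unadjusted p under 0.05, near the 25.1% of all genes tested, and of the 196 without a peak 32 (16.3%) did. Of the 41, 8 were higher (19.5%) and 3 lower (7.32%), and of the 196 without a peak 23 were higher (11.7%) and 9 lower (4.59%). The 8 and the 23 together include 7 genes with an 18M mean under 1 FPKM, for which the sign was built into their choice. Of these 7 only ZNF12 (ENSBGRG00000016763) carried a peak, and the shares were not recomputed without them. Among 1068 other genes with a peak at a mean of at least 1 FPKM, 24.0% were higher and 7.68% lower. The median log2 fold change was 0.11 with a peak and 0.15 without, against 0.18 and 0.01 in other genes. The 8 higher genes were ZNF395, ZNF579, ZNF423, ZNF618, ZNF699 (ENSBGRG00000001454), ZNF12 (ENSBGRG00000016763), ZNF532 and ZNF518B, and the 3 lower ones ZNF512 (ENSBGRG00000008078), ZNF783 and ZNF451. These differences of share were not tested.

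Among them ZNF579 had 2.91, 4.23 and 2.70 FPKM in the 18M and 11.4, 3.76 and 6.10 FPKM in the 5Y libraries, so that its groups overlapped through 5Y_2. ZNF783 had 14.8, 11.1 and 17.0 FPKM against 4.94, 11.98 and 7.39 FPKM, again with an overlap through 5Y_2. ZNF451, a SUMO ligase, had 18.0, 18.0 and 17.9 FPKM in the 18M and 11.5, 14.8 and 13.9 FPKM in the 5Y libraries, with narrow 18M values and no overlap (log2 fold change -0.43, adjusted p = 0.164, limma). ZNF699 (ENSBGRG00000001454) had 1.02, 1.22 and 1.15 FPKM against 2.77, 1.56 and 1.82 FPKM. The groups did not overlap for 18 of the 41 genes with a peak (43.9%), for 61 of the 196 without (31.1%) and for 33.7% of all genes tested. The smallest differences among genes with a peak were those of ZNF691, ZNF462, ZNF74, ZNF829 and ZNF576, with log2 fold changes between -0.02 and 0.03. ZNF24 (ENSBGRG00000019835), which carried a peak, had a log2 fold change of -0.08, and the identifier without a peak (ENSBGRG00000019773) had 0.30.

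A label of the KEGG annotation, Herpes simplex virus 1 infection, stood on 85 of the ZNF genes. In KEGG this label collects many KRAB zinc finger genes. The domain itself was not checked here, so the genes are divided by label only. These genes had a median level of 2.39 FPKM against 3.77 FPKM in the 152 without the label. Of the 85, 8 were higher (9.41%) and 2 lower (2.35%) at an unadjusted p under 0.05. Of the 152, 23 were higher (15.1%) and 10 lower (6.58%), beside 14.2% and 10.9% of all genes tested. The higher genes of both sets include some that met the limit of 1 FPKM only through the 5Y group. A differential peak was carried by 12.9% with and 19.7% without the label.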

How the data were processed

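FPKM values of 20953 genes in 6 input libraries were deposited by the authors. Per the methods, reads were trimmed with Trimmomatic, freed of rRNA with SortMeRNA and aligned with HISAT2 (version 2.0.4 in the submitters' processing notes) to LU_Bosgru_v3.0, and uniquely mapped reads were kept. The program behind FPKM is not given in the sources used here. The deposited differential peaks were called with MeTDiff and annotated with ChIPseeker, and their positions and widths were used as deposited. Lists of peaks of the single groups, IP values and sequences were not used here.

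Genes with a mean of at least 0.5 FPKM (12437) entered a two-sided comparison in limma 3.58.1 under R 4.3.3 (lmFit, then eBayes with a trend) on log2(FPKM + 0.1), with Benjamini-Hochberg adjustment over all of them. Fold changes of the ZNF genes were read from that fit. Counts, medians and plots were made in Python 3.11.15 with pandas 2.3.3, numpy 2.4.6 and matplotlib 3.10.9. Fragment numbers are not in the table. Ratios of low values to those of library 18M_1 had medians of 0.914 to 1.00. Only ratios close to 1 were kept for these medians, so they cannot show whether depths were close. FPKM summed to 116200 to 139900 per library.

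The ZNF genes, role lists and markers were chosen with earlier results of these data known. Named were all ZNF genes with a peak, the 10 highest in level, the 10 largest differences in each direction (unadjusted p under 0.05, no overlap) and the role and corepressor lists. One gene of the corepressor list is not reported here. A symbol on several identifiers was followed by each identifier. The record gives 3 animals per age, so replicates are animals. The test was checked on simulated data of 12437 genes: with no gene changed 0 were called, and of 200 genes with a log2 change of 2, 71.5% were recovered at the adjusted threshold. The simulated noise was independent between genes and equal in both groups, which the measured libraries need not follow. Other pseudocounts, filters, scalings, forms of eBayes, a replicate block and each library left out were tried.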

Additional observations from a re-analysis of the deposited data

How the results depend on the processing

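No ZNF gene passed an adjusted p of 0.05 or of 0.1 in limma under any setting with all libraries. With 1 library left out the count ran from 0 to 24, and only the fit without 5Y_2 gave any. Over these fits the ZNF genes higher at an unadjusted p under 0.05 ran from 17 to 46 (7.17% to 19.4%), and the genes lower from 6 to 27 (2.53% to 11.4%). Of all genes tested, 8.31% to 21.8% were higher and 4.88% to 18.3% lower. The median log2 fold change of the ZNF genes ran from 0.11 to 0.19. Without 18M_3, 17 were higher and 6 lower, and without 5Y_3, 19 were higher. The table of differential peaks is not touched by these fits.

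Libraries scaled to the same sum, with the pseudocount kept on the FPKM scale, gave 50 higher genes, a median of 0.27 and 14 genes lower without overlap. Median ratio scaling gave 19 lower genes. With a limit of 2 FPKM for ZNF genes, 36 were higher without overlap, out of fewer genes. When peaks were matched by symbol in place of identifier, 72 ZNF genes carried one, since all identifiers of a symbol then count. The deviations of same-numbered libraries from their group means had correlations of -0.02, -0.09 and 0.01. With 3 libraries per group, these values cannot show whether a shared number marks a shared batch, and the labels do not say so. With a replicate block 24 ZNF genes were higher, 13 lower and 0 passed the adjusted threshold, where 11.3% of all genes were higher and 9.34% lower.

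Of 32 named genes at an unadjusted p under 0.05, 12 stayed under it and none changed direction in the 10 other settings run for single genes (a pseudocount of 1, median ratio scaling, quantile normalization, the replicate block and each library left out). Of these 320 values, 87 missed the threshold. The sums of fragments behind a value are unknown, which limits what can be said of genes near 1 FPKM.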
